A study of Homo sapiens with 4 samples.

Results

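The genes of tight junctions and desmosomes were read in 4 RNA-seq libraries of the human cell line SKOV3, which was established from an ovarian cancer. Members were taken by symbol (the numbered claudins, the TJP genes, the desmogleins, desmocollins and plakophilins, and 11 named genes: OCLN, F11R, JAM2, JAM3, CGN, CXADR, MARVELD2, DSP, JUP, PPL and EVPL). The rule found 49 of the 19475 gene symbols listed, with 111 of the 50078 transcripts, and the transcript with the highest mean was used for each symbol. Of the 49, 34 belong to tight junctions and 15 to desmosomes. By the labels, cells on TCP (tissue culture plate) stand for day 0 and gave 2 libraries, and tumor spheroids that had grown for 8 days on polymer X, a polymer thin film, gave the other 2. SKOV3 cells of both groups carry no other treatment in the labels. Substrate and culture time changed together, so their parts cannot be told apart. The labels describe serum replacement for all 4 libraries, while the methods of the study describe fetal bovine serum for maintained SKOV3 cells, and which of them the cells on TCP received is not certain. The labels do not say that the 2 libraries of a group came from separate cultures, so p-values measure only the spread between these libraries, which may be technical.

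Tight junctions seal the space between neighbouring epithelial cells. Claudins form the strands and decide which ions pass, occludin and tricellulin are MARVEL-domain proteins of the strands, JAM proteins are immunoglobulin-type adhesion molecules, and the ZO proteins tie all of these to actin. Desmosomes give the same cells mechanical strength: desmogleins and desmocollins are cadherins that bind across the gap, plakoglobin and plakophilins hold their tails, and desmoplakin links them to keratin filaments. SKOV3 is a line of mixed epithelial and mesenchymal character, which is background here and not a result.

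Values are FPKM, a tag count divided by transcript length and by the library total, so levels can be compared between genes. The libraries were scaled to between 38403000 and 44914000 tags, and the correlation across tested genes was 0.998 between the TCP replicates and 0.997 between those of polymer X, against 0.854 to 0.862 between groups. Genes that reached an FPKM of 1 in 2 or more libraries, 11964 in all, entered limma on log2(FPKM + 1), a scale that understates the change of low genes. A gene rose or fell where its adjusted p was under 0.05, and it was called higher or lower where the log2 fold change also reached 1 in size. With 2 libraries a group, the smallest two-sided p of an exact permutation test is 0.333. Of the markers of an ovarian carcinoma line, PAX8, ERBB2, KRT8 and KRT18 had an FPKM of 48.8 or more in every library. KRT7 lay between 4.04 and 8.33, WT1 and MUC16 stayed at or under 0.421 and EPCAM at or under 1.39. The tested markers moved both ways. PAX8, ERBB2 and EPCAM were called higher on polymer X (log2 fold changes 1.06, 2.13 and 1.05), EPCAM through the polymer X libraries only. KRT7, KRT8 and KRT18 fell (-0.76, -0.87 and -0.44). In bulk RNA, fewer cells that carry a transcript and less of it per cell cannot be told apart.

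Of the 49 genes, 27 were tested and 22 were too low, with no FPKM above 0.942 in any library. Among the 27, 10 were called higher on polymer X (F11R, JUP, PPL, CLDN10, CLDN4, CLDN3, JAM2, TJP3, CXADR and DSC2) and 1 was called lower (CLDN1), where 10.7% and 9.45% of all tested genes were called higher and lower. At the adjusted p alone, 14 rose and 9 fell, against 37.4% and 43.6% of all tested genes, and 4 did not pass, against 19%. These counts need care, because 8 of the 27 passed the filter through the polymer X libraries only, and such genes had to be higher there. They were PPL, CLDN10, CLDN3, CLDN7, JAM2, CXADR, TJP3 and PKP2, and their calls and p-values do not test a direction. CLDN22 passed through the TCP libraries only and had to be lower on polymer X. Of the 17 members that reached an FPKM of 1 in all 4 libraries, 4 were called higher (F11R, JUP, CLDN4 and DSC2) and 1 lower, against 7.85% and 9.71% of the 10800 genes of that kind, and 6 rose and 8 fell, against 33.3% and 46.3%. The median log2 fold change was 0.26 over the 27 tested genes and -0.07 over the 17, against -0.06 over all tested genes.

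**Figure D1:**
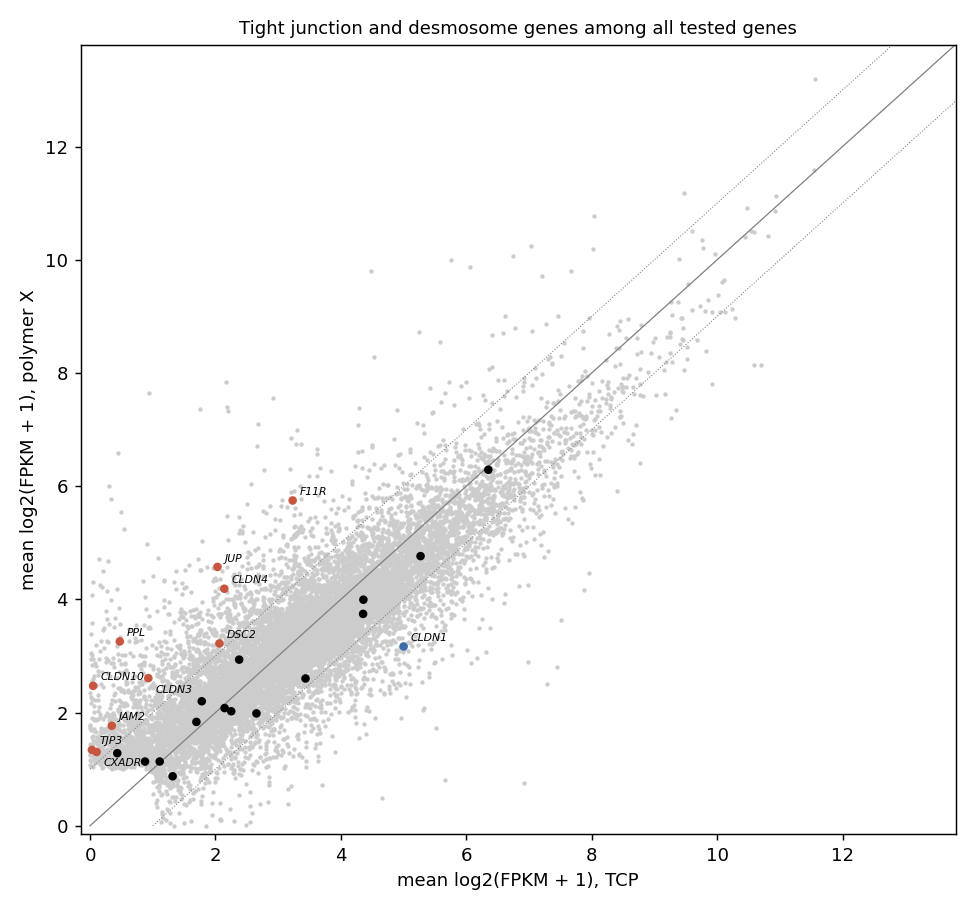
Mean log2(FPKM + 1) of the 2 TCP libraries (x axis) and of the 2 polymer X libraries (y axis) for the 11964 tested genes in grey, with 26 of the 27 tested tight junction and desmosome genes in red (10 called higher), blue (CLDN1, called lower) or black. The solid line marks equal means and the dotted lines a log2 difference of 1, and PPL, JUP, F11R and CLDN10 lie farthest above them while DSG2, the black point at the upper right, lies close to the solid line.

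The claudins changed in makeup more than in sum. Over the 24 claudin genes, the summed FPKM was 48.7 and 48.5 in the TCP libraries and 55.5 and 50.2 on polymer X. CLDN1, a sealing claudin of most epithelia (chromosome 3 of hg19, 190023490 to 190040235, minus strand), had an FPKM of 31.2 and 30.8 on TCP and of 8.43 and 7.56 on polymer X. It was the highest claudin in both TCP libraries and the one member called lower, 3.88-fold down in its mean FPKM (log2 fold change -1.83, standard error 0.07, adjusted p = 1.4e-08 from limma). CLDN4, a claudin often raised in ovarian carcinoma and a receptor for a clostridial enterotoxin, had 3.19 and 3.64 on TCP and 17.7 and 16.8 on polymer X. It was called higher, with a 5.04-fold rise in mean FPKM (log2 fold change 2.05, standard error 0.07, adjusted p = 1.4e-08 from limma), and was the highest claudin in both polymer X libraries. In terms of the summed claudin FPKM, CLDN1 went from 64.2% and 63.5% in the TCP libraries to 15.2% and 15.05% on polymer X, and CLDN4 from 6.56% and 7.52% to 31.8% and 33.4%.

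**Figure D2:**
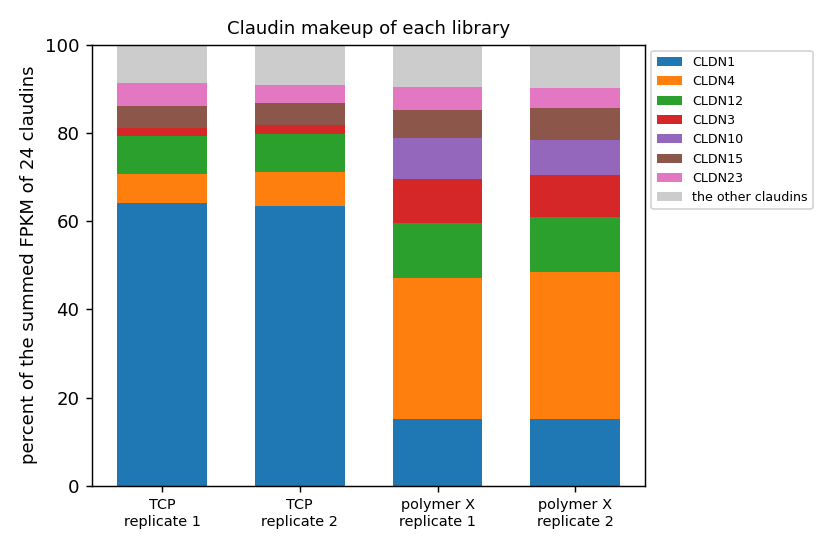
Share of the summed FPKM of the 24 claudin genes (y axis, percent) that each claudin held in each of the 4 libraries (x axis), with the smaller claudins pooled in grey. CLDN1 fills 63.5% or more of both TCP bars and 15.2% or less of both polymer X bars, where CLDN4 is the tallest band.

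CLDN3, the second receptor for the same enterotoxin, had an FPKM of 0.881 and 0.928 on TCP and of 5.50 and 4.72 on polymer X. It was called higher as well, 5.65-fold in mean FPKM (log2 fold change 1.68). CLDN3 and CLDN4 lie next to each other on chromosome 7 of hg19 (73183327 to 73184600 and 73245193 to 73247023), 60592 bases apart. CLDN10, which forms ion-selective pores, was nearly silent on TCP at 0.042 and 0.027, that is 4 and 3 tags, and reached 5.14 and 4.01 on polymer X. Its log2 fold change was 2.42 (standard error 0.11), and the ratio of summed tags was 135 (exact 95% interval 65.3 to 337, for counting error only). The 3 CLDN10 transcripts gave log2 fold changes of 2.08 to 2.42. Both CLDN3 and CLDN10 passed the filter through the polymer X libraries only. DZIP1, on the other strand, overlaps the CLDN10 transcript by 1555 bases of genomic span and had 0.349 and 0.394 on TCP and 1.95 and 1.69 on polymer X, and since the authors counted both strands, tags of the overlap cannot be told apart.

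Other tested claudins moved less on the scale of log2(FPKM + 1), which understates the change of low genes. CLDN7 had 0.345 and 0.357 on TCP and 1.38 and 1.49 on polymer X, with a log2 fold change of 0.85 that lay under the minimum for a call. In mean FPKM it rose 4.08-fold, beside the 3.88-fold fall of CLDN1. With a pseudocount of 0.1 or with its transcripts summed CLDN7 was called, at 1.76 and 1.35, while under quantile normalization it was 0.29 (adjusted p = 0.016 from limma). CLDN7 passed the filter through the polymer X libraries only, and ELP5, on the other strand, overlaps its transcript by 38 bases. CLDN12 and CLDN15 rose by log2 fold changes of 0.56 and 0.42 (CLDN15 0.22 under quantile normalization), with 4.12 and 4.27 against 7.01 and 6.30 for CLDN12. CLDN23 overlapped between the groups and its log2 fold change of 0.14 did not pass (95% interval -0.10 to 0.38) and was -0.11 under quantile normalization. CLDN22 passed the filter through the TCP libraries only, so it had to be lower on polymer X. It fell from 1.37 and 1.62 to 0.997 and 0.682, a log2 fold change of -0.44 (-0.91 under quantile normalization). That change did not pass with no filter on low values (adjusted p = 0.0794 from limma). It lies wholly within WWC2, a gene of the other strand with 12.1 and 12.4 on TCP and 4.62 and 4.71 on polymer X, so the tags of CLDN22 cannot be told from those of WWC2.

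The other 15 claudins were not tested. CLDN2, a pore-forming claudin, had 0.035 and 0.030 on TCP and 0.603 and 0.470 on polymer X, a ratio of summed tags of 16.6 (exact 95% interval 8.20 to 39.4). CLDN16, a claudin of the kidney that lies 65425 bases from CLDN1 on chromosome 3, ran the other way, with 0.191 and 0.150 on TCP and 0.023 in both polymer X libraries (ratio of TCP over polymer X 7.43, exact 95% interval 3.16 to 21.3). CLDN17 and CLDN25 were listed at 0 in all 4 libraries, and CLDN11, CLDN14, CLDN18 and CLDN20 lay between 0.184 and 0.942. CLDN20 lies wholly within TFB1M, a gene of the other strand with 4.44 and 4.15 on TCP and 2.98 and 3.51 on polymer X, so its tags cannot be told from those of TFB1M. The remaining 7, CLDN5, CLDN6, CLDN8, CLDN9, CLDN19, CLDN24 and CLDN34, had at most 12 tags in any library, and no interval was computed for them.

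**Figure D3:**
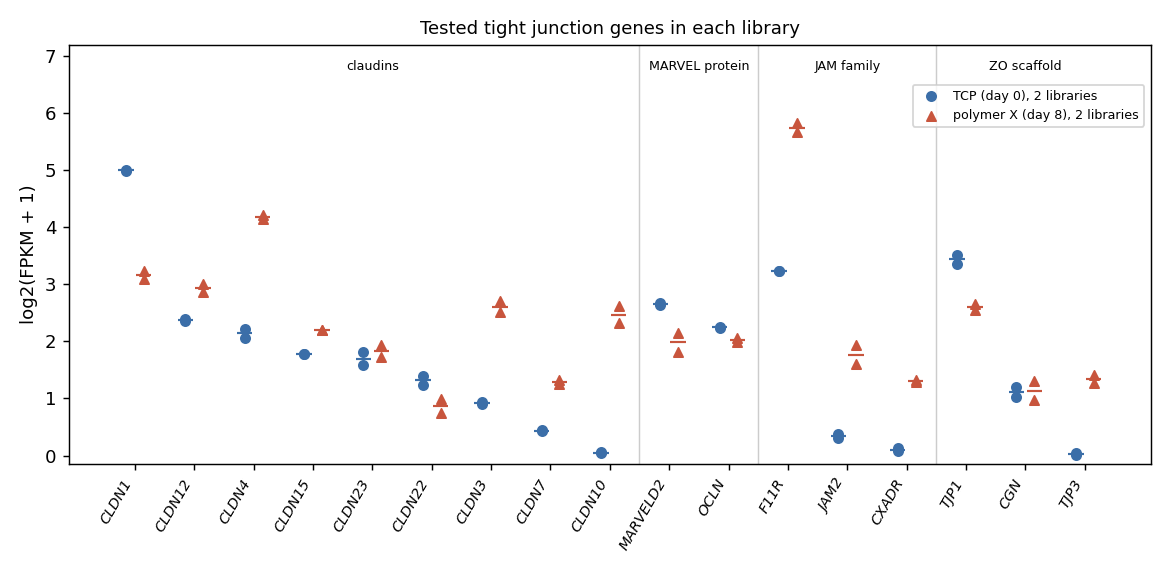
Level of 17 of the 18 tested tight junction genes as log2(FPKM + 1) (y axis), grouped by protein family, with a blue circle for each of the 2 TCP libraries, a red triangle for each of the 2 polymer X libraries and a bar at each group mean. F11R, CLDN4, CLDN3 and CLDN10 stand higher on polymer X, CLDN1 and TJP1 stand lower, and CGN and CLDN23 overlap.

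Of the 4 JAM family genes, 3 were tested and called higher, but JAM2 and CXADR passed the filter through the polymer X libraries only, and F11R was the one with an FPKM above 1 in every library. F11R encodes JAM-A, the main JAM of epithelia (chromosome 1 of hg19, 160964996 to 160991133, minus strand), and had an FPKM of 8.40 and 8.37 on TCP and of 49.9 and 55.7 on polymer X. The groups lay far apart, with a 6.29-fold rise in mean FPKM (log2 fold change 2.52, standard error 0.07, adjusted p = 3.0e-09 from limma), and F11R held 92.8% or more of the summed FPKM of the family in every library. JAM2, known mainly from endothelium, had 0.3 and 0.244 on TCP and 2.03 and 2.82 on polymer X (log2 fold change 1.42). CXADR, the coxsackievirus and adenovirus receptor, had 0.051 and 0.1 on TCP and 1.495 and 1.44 on polymer X (log2 fold change 1.199). Both stood well above their TCP libraries, JAM2 by 8.91-fold in mean FPKM and CXADR with a ratio of summed tags of 18.96 (exact 95% interval 13.4 to 27.8). Under quantile normalization neither reached the minimum for a call, at 0.95 and 0.70, and over the 5 CXADR transcripts the log2 fold change lay between 0.69 and 1.199. JAM3 was not tested and had 0.163 and 0.140 on TCP and 0.057 and 0.091 on polymer X.

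Both MARVEL genes had lower values on polymer X. OCLN, which encodes occludin, went from 3.73 and 3.79 to 3.17 and 2.96 (log2 fold change -0.23, adjusted p = 0.017 from limma). Its pass was lost without TCP replicate 1, without TCP replicate 2 and without polymer X replicate 2 (adjusted p = 0.0587, 0.0767 and 0.0709 from limma). MARVELD2, which encodes tricellulin, a protein of the corners where 3 cells meet, fell from 5.37 and 5.22 to 3.45 and 2.52 (log2 fold change -0.67, adjusted p = 2.7e-04 from limma). Neither change reached the minimum for a call. The genes are neighbours on chromosome 5, 50699 bases apart.

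Among the scaffolds, TJP1 fell and TJP3 rose. TJP1, which encodes ZO-1, had an FPKM of 9.26 and 10.4 on TCP and of 5.30 and 4.85 in the spheroids, a 1.94-fold drop in mean FPKM (log2 fold change -0.83, 95% interval -1.01 to -0.66), and its 9 transcripts gave values between -0.83 and -0.80. TJP3, the ZO gene mostly confined to epithelia, had 0.034 and 0.007 on TCP, that is 4 tags and 1 tag, and 1.41 and 1.66 on polymer X. TJP3 passed the filter through the polymer X libraries only. It was called higher (log2 fold change 1.31) with a ratio of summed tags of 79.1 (exact 95% interval 33.6 to 245). Under quantile normalization it reached 0.92 and was not called. APBA3, on the other strand, overlaps the TJP3 transcript by 41 bases. CGN, which encodes cingulin, overlapped between the groups at 1.03 and 1.30 against 0.959 and 1.46 (log2 fold change 0.02, 95% interval -0.25 to 0.30). Under quantile normalization its sign turned and it passed as lower, at -0.43 (adjusted p = 0.025 from limma).

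In desmosomes, the summed level of the cadherins moved little while plakoglobin rose. The summed FPKM of the 7 desmosomal cadherins was 86.9 and 87.5 on TCP and 88.9 and 88.7 on polymer X. DSG2, the desmoglein of simple epithelia, made up 86.6% or more of it in every library, with 80.4 and 80.8 on TCP and 77.0 and 77.4 on polymer X. The groups did not overlap, but the log2 fold change of -0.06 did not pass the test (95% interval -0.18 to 0.06, adjusted p = 0.298 from limma), and it was 0.28 under quantile normalization (adjusted p = 0.0010). With no filter on low values the same -0.06 passed (adjusted p = 0.042). DSC2, its usual partner in simple epithelia, was called higher, from 3.20 and 3.16 to 8.49 and 8.16, a 2.62-fold rise in mean FPKM (log2 fold change 1.16, standard error 0.07, adjusted p = 3.2e-07 from limma). DSC3 overlapped between the groups, with 3.27 and 3.58 against 3.30 and 3.15 (log2 fold change -0.07, 95% interval -0.24 to 0.11), and passed under quantile normalization, at -0.25 (adjusted p = 0.012 from limma). DSC2 and DSC3 were thus close on TCP, and on polymer X DSC2 made up 71.8% and 72.0% of the summed desmocollin FPKM. DSC1, DSG1, DSG3 and DSG4, the cadherins of stratified epithelia and hair, had an FPKM of at most 0.044. The 7 cadherin genes form 1 cluster on chromosome 18 of hg19 (28569331 to 29128970), of which DSC2, DSC3 and DSG2 were tested.

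JUP encodes plakoglobin, the armadillo protein that desmosomes and adherens junctions share, and lies on chromosome 17 of hg19 (39910859 to 39943020, minus strand). It had an FPKM of 3.02 and 3.17 on TCP and of 22.0 and 23.6 on polymer X. The groups lay far apart, with a 7.38-fold rise in mean FPKM (log2 fold change 2.54, standard error 0.07, adjusted p = 3.0e-09 from limma), and the 7 JUP transcripts gave values between 2.52 and 2.54. The plakophilins did not follow. PKP3 and PKP4 fell, from 19.5 in both TCP libraries to 14.5 and 15.4 for PKP3 (log2 fold change -0.36, and -0.20 under quantile normalization) and from 19.3 and 19.6 to 13.005 and 11.8 for PKP4 (log2 fold change -0.61). PKP2 passed the filter through the polymer X libraries only. Low at 0.886 and 0.788 on TCP, it reached 1.38 and 1.03 in the spheroids. Its log2 fold change of 0.26 passed the test (adjusted p = 0.037 from limma) but turned to -0.26 under quantile normalization (adjusted p = 0.059). Its pass was also lost without TCP replicate 1, without TCP replicate 2 and without polymer X replicate 1 (adjusted p = 0.0591, 0.149 and 0.189 from limma). PKP1, the plakophilin of skin, had at most 0.065.

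The plakins, which anchor filaments, moved in opposite directions. DSP, which encodes desmoplakin, fell from 36.9 and 38.2 to 26.6 and 25.8 (log2 fold change -0.51, adjusted p = 2.1e-05 from limma, and -0.25 under quantile normalization), and was the highest plakin in every library. PPL, which encodes periplakin (chromosome 16 of hg19, 4932508 to 4987136, minus strand), had 0.444 and 0.337 on TCP and 7.85 and 9.32 on polymer X. PPL passed the filter through the polymer X libraries only, so its direction was not tested. It was called higher, 22.0-fold in mean FPKM (log2 fold change 2.78, standard error 0.09, adjusted p = 1.1e-08 from limma). Its share of the summed plakin FPKM went from 1.19% and 0.874% to 22.8% and 26.6%. EVPL, the usual partner of periplakin in stratified epithelia, had at most 2 tags in any library.

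**Figure D4:**
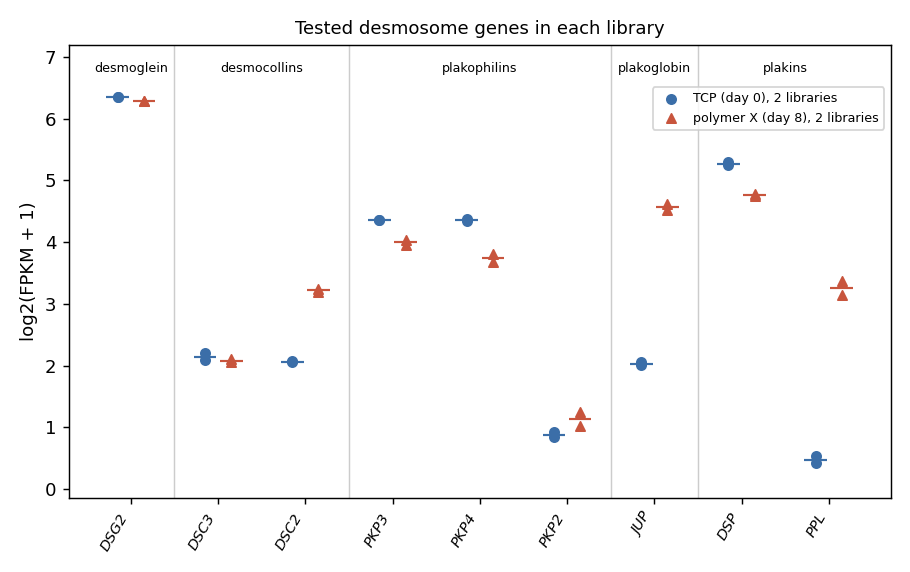
Level of the 9 tested desmosome genes as log2(FPKM + 1) (y axis), grouped by protein family, with a blue circle for each of the 2 TCP libraries, a red triangle for each of the 2 polymer X libraries and a bar at each group mean. JUP, PPL and DSC2 stand higher on polymer X, DSP, PKP3 and PKP4 stand lower, and DSG2 is the highest gene in both groups.

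**Figure D5:**
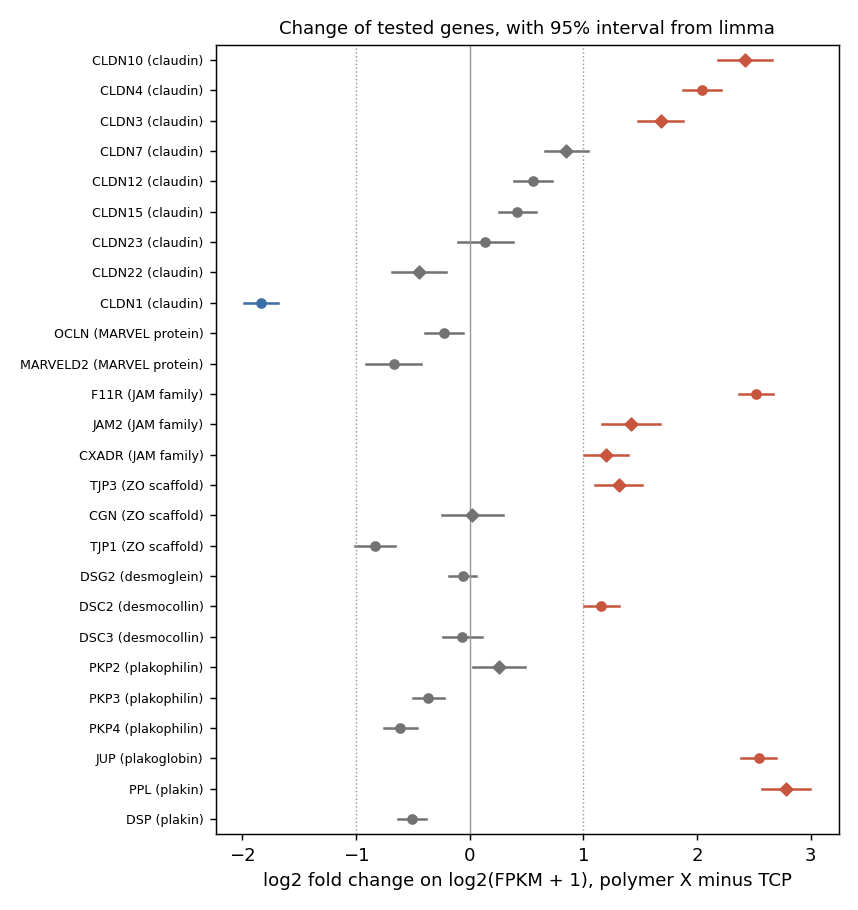
Log2 fold change of 26 of the 27 tested genes on the scale of log2(FPKM + 1), polymer X minus TCP, with the 95% interval from limma as a line. Red marks genes called higher, blue the gene called lower and grey the others, circles mark genes that reached an FPKM of 1 in all 4 libraries and diamonds the others, and the dotted lines mark the minimum for a call, 1 up or down.

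The promoters of genes that moved are shown because some hold the hexamer CAGGTG, an E-box form to which repressors such as SNAI2 and ZEB1 are known to bind. RefSeq gave starts for 34 of the 49 genes on GRCh38.p14, including CLDN1 and 6 of the 10 genes called higher. The motifs searched, on both strands of the 250 bases before each start, were CAGGTG, the AP-1 site TGANTCA and the grainyhead site AACNNGTT. Both the motifs and the promoters were chosen after the values were seen. Capitals mark TGANTCA in CLDN4 and CAGGTG, or CACCTG on the other strand, in JUP, DSC2 and TJP3, and CLDN1 holds none of the 3 motifs. The sequences, each read along the strand of its gene up to the base before the start, are those of CLDN1 (chr3:190322447-190322696, minus strand), CLDN4 (chr7:73830746-73830995, plus strand), JUP (chr17:41785977-41786226, minus strand), DSC2 (chr18:31102422-31102671, minus strand) and TJP3 (chr19:3721487-3721736, plus strand).
CLDN1: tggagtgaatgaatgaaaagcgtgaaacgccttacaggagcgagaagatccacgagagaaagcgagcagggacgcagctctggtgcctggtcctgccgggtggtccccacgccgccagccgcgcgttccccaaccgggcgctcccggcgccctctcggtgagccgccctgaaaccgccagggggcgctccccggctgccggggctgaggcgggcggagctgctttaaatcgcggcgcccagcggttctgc
CLDN4: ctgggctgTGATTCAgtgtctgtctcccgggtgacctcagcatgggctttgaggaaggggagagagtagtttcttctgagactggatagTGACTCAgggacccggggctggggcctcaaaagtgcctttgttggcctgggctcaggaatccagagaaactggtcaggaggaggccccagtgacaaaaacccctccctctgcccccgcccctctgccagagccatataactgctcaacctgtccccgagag
JUP: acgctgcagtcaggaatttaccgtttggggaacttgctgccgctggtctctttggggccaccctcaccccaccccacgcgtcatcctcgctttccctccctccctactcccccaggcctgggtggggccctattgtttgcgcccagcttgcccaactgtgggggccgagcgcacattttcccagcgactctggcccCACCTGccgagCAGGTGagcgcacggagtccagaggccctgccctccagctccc
DSC2: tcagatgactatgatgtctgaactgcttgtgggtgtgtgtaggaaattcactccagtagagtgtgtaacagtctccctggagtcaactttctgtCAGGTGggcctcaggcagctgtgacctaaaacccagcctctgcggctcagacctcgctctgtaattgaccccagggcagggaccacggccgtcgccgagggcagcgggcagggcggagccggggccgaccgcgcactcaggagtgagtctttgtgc
TJP3: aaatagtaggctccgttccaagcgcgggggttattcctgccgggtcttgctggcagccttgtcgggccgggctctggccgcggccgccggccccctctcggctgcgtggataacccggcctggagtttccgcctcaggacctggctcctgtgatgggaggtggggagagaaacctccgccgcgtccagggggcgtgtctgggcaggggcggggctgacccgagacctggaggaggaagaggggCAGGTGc
CAGGTG was found in 12 of the 34 genes, against 20.6% of the 27305 genes with a start in the same table. Of the 6 matched genes called higher, 3 held it (JUP, DSC2 and TJP3). So did CLDN7, which rose without a call, DSG2, which did not pass the test, and DSP, OCLN and TJP1, which fell, and JUP, DSC2 and TJP3 each have a further start with no match. In JUP the matches begin 54 and 43 bases before start 2 of its 2 listed starts, the one printed. Which start the measured transcripts use was not tested. TGANTCA was found in 4 genes (CLDN2, CLDN4, CLDN15 and CLDN16), against 8.06% of genes, and AACNNGTT in CGN alone, against 3.73%. A match describes the letters of these windows and says nothing of binding in these cells.

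Genes that work with these junctions were read from lists of the same fit, for which the shares over all tested genes are again 37.4% risen, 43.6% fallen, 10.7% called higher and 9.45% called lower. In the adherens junction list, 12 of 15 genes were tested, 2 rose and 8 fell, with 1 called in each direction. CDH3, 1 of the 2 that rose, passed the filter through the polymer X libraries only and so had to be higher there. ARVCF, a catenin of the p120 group, was called higher, from 3.31 and 3.01 to 17.0 and 17.6, and NECTIN3, an immunoglobulin-type adhesion molecule, was called lower, from 13.1 and 11.7 to 4.88 and 4.89. CDH2, which encodes N-cadherin, fell from 54.6 in both TCP libraries to 27.8 and 25.97 (log2 fold change -0.996, just short of the minimum for a call), and CDH1, which encodes E-cadherin, was not tested, at 0.034 and 0.029 on TCP and 0.373 and 0.351 on polymer X. Of the 29 tight junction partners and polarity genes, 22 were tested, 4 of them through the polymer X libraries only, and 11 rose and 6 fell, where 37.4% and 43.6% of all tested genes did. LSR, the angulin that brings tricellulin to the corners of cells, was called higher, from 1.67 and 2.11 to 17.7 and 17.4 (log2 fold change 2.69), and AMOTL2, an angiomotin, was called lower, from 40.0 and 42.4 to 5.09 and 5.35. Of the 16 desmosome and filament partners, 10 were tested, 1 rose and 6 fell in limma, and none of these changes reached the minimum for a call.

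Of the 14 genes in the gap junction list, 7 were tested, 5 rose and 1 fell, against 37.4% and 43.6% of all tested genes. The list includes PANX1 and PANX2, which are pannexins and not connexins, and both were among those that rose (log2 fold changes 0.18 and 0.27). GJB2, which encodes connexin 26 and passed the filter through the polymer X libraries only, was the one called, from 0.380 and 0.430 to 43.5 and 47.4 (log2 fold change 5.05, standard error 0.07, adjusted p = 1.9e-10 from limma). Of the 21 epithelial transcription regulators, 11 were tested, 4 rose and 3 fell, shares near or under the 37.4% and 43.6% of all tested genes. SNAI2, a repressor of epithelial genes, was called lower, from 30.1 and 29.2 to 7.75 and 8.21 (log2 fold change -1.77), while ZEB1 had 9.05 and 8.87 on TCP and 8.15 and 8.11 on polymer X (log2 fold change -0.13, 95% interval -0.27 to 0.02). ELF3 and EHF, ETS factors of epithelia, were called higher, from 8.09 and 7.71 to 22.3 and 23.3 and from 0.747 and 0.958 to 8.18 and 7.49, and EHF passed the filter through the polymer X libraries only. Other regulators of the list moved less and in both directions. ZEB2 and TWIST1, known as repressors of epithelial genes like SNAI2, rose by log2 fold changes of 0.39 and 0.54, while TWIST2 and KLF4 had log2 fold changes of -0.66 and -0.34 and fell.

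Of 11 markers of leukocytes, endothelium, fibroblasts and red cells, the summed FPKM was 8.51 and 8.67 on TCP and 12.6 and 11.4 on polymer X, and without the fibroblast genes DCN and COL1A1 it was 0.275 and 0.198 against 1.56 and 1.48. DCN was the one called higher, from 0.025 and 0 to 7.26 and 6.20. COL1A1, the other tested marker, fell from 8.21 and 8.48 to 3.81 and 3.77 (log2 fold change -0.96, adjusted p = 9.3e-07 from limma). PTPRC and PECAM1 lay at or under 0.005 on TCP and between 0.458 and 0.573 on polymer X. CDH5 and VWF, which define endothelium, were at or under 0.025 in every library, and CD3E and HBB were at 0. The part of these genes in the rise of JAM2 and the other low members was not tested.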

How the data were processed

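RNA-seq was analysed in 4 libraries of SKOV3, 2 on TCP and 2 on polymer X. The authors deposited FPKM values from HOMER for RefSeq transcripts of hg19, for which tags on exons were counted without regard to strand, divided by transcript length and library total, and rounded to 3 decimals. The submitters' processing notes name STAR 2.4.0, HOMER and DESeq. The command in the file header also lists ULA and V4D4 libraries, which were not analysed here.

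Each symbol was read from 1 transcript, that of the highest mean over all libraries. Genes that reached an FPKM of 1 in 2 or more libraries entered limma 3.58.1 in R 4.3.3 as log2(FPKM + 1) (variance trend, no replicate block, Benjamini-Hochberg adjustment over 11964 genes) and were called where the adjusted p was under 0.05 and the log2 fold change was 1 or more in size. The fit was tested on simulated data. The steps between low values gave the number of tags each library was scaled to, 100% of the low values used came within 0.1 of whole tags, and from these came the tags and exact intervals (scipy 1.17.1), which cover counting error only. Even numbers made up 52.3% to 57.4% of these, and if some tags are mates of a pair the intervals are too narrow. Members and lists were chosen with earlier results of these data known. Every called member is given with its values, and of each partner list at most 4 called genes in each direction, with CDH1, CDH2, SNAI2 and ZEB1. WWC2, DZIP1 and APBA3 were named for overlap, and markers and other genes after their values were seen. One member is counted but not reported here. Plots were drawn with matplotlib 3.10.9.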

Additional observations from a re-analysis of the deposited data

How the results depend on the processing

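The 10 members called higher and 1 called lower stayed within 1.5 times of these counts under a pseudocount of 0.1, no filter, quantile normalization, common median scaling, the replicate block, the sum of transcripts and no variance trend. No filter, the replicate block and no variance trend leave each log2 fold change as it was, so only the adjusted p could move. Among the 10, PPL, CLDN10, CLDN3, JAM2, TJP3 and CXADR passed the filter through the polymer X libraries only, and these counts do not test their direction. Of genes with a mean FPKM of 5 or more, 4 of the 12 members tested were called higher, and 702 of all 8166 genes tested. With no fold change minimum 9 of the 27 members were lower, and 4477 of all 11964 tested genes were higher (37.4%) and 5212 lower (43.6%). Of the partner genes, with 12, 22, 10, 7 and 11 tested in the lists, 23 were higher and 24 lower. With the minimum log2 fold change raised to 2, 5 members were called higher and 0 lower, over all genes 281 and 150, and 1 partner gene was lower. Beside 0 members called lower there, limma gave 9 lower at the adjusted p. The 5 partner genes called higher and 3 called lower became 9 and 6 with transcripts summed, and 6 were lower with a pseudocount of 0.1. Over the tested members, the median log2 fold change was 0.46 with a pseudocount of 0.1, 0.019 with no filter (all 49 genes) and -0.21 with the mean FPKM of 5 as the filter. Quantile normalization turned the sign of CLDN23 (-0.11), CGN (-0.43, adjusted p = 0.025 from limma), DSG2 (0.28, adjusted p = 0.0010 from limma) and PKP2 (-0.26) and ended the calls of CXADR, JAM2 and TJP3. The cause was not tested.

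With each library left out in turn, which leaves 1 library in a group and assumes that it varies like the other group, 10 members were called higher and 1 lower each time, while OCLN and PKP2 each lost their pass in 3 of the 4 fits and the sign of CGN turned in 2. The other counts were 1289 to 1325 higher and 1053 to 1234 lower over all genes, and 5 higher and 3 to 5 lower in the partner lists, with 5 lower without TCP replicate 1 and without polymer X replicate 1. The median of the members was 0.19 to 0.37, and polymer X replicate 2 was the library whose absence gave the highest. These fits kept the filter over all 4 libraries, so members that passed it through the polymer X libraries only still had to be higher. In a fit that added a replicate block, 10 members were higher and 1 lower. Each group holds 1 library of each number, so the block cannot change a log2 fold change, and the median of 0.26 was fixed in advance. Across 11964 genes, deviations from the group means had a correlation of 0.093 between libraries of the same number, and with 2 pairs the numbers were not taken as a pairing. The 22 members that were not tested did not pass the FPKM filter, and depth limits those of them with few tags.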
